A study of Mus musculus with 10 samples.

Results

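A set of 10 genes, grouped as stress-induced genes of heart muscle cells, was followed through 6 hearts and 4 macrophage cultures of the mouse. They were Sprr1a, Fhl1, Ankrd1, Ankrd23, Xirp1, Xirp2, Rcan1, Gdf15, Clu and Uck2, 10 of the 55357 gene identifiers counted, and all 10 were found by matching the identifiers to mouse symbols. They were selected on their levels in these hearts, saline against IL-10, so those values are given below as a description, with no p-value, and nothing is read from how many of them passed a threshold. All 6 hearts are labelled Cd163-/-, the notation for loss of both copies of the gene for CD163, the haemoglobin-haptoglobin scavenger receptor of macrophages. The mice received saline (n = 3) or the anti-inflammatory cytokine interleukin-10 (IL-10, n = 3), the latter injected under the skin at a daily dose of 50 µg/kg between day 0 and day 27. The study's design describes transverse aortic constriction (TAC), which narrows the aorta and loads the left ventricle, in males aged 8 weeks. The labels do not say whether each heart had that surgery, and sham-operated and wild-type hearts were not analysed here. The macrophages were adherent peritoneal cells elicited with thioglycolate and kept for 48 h in 100 nM dexamethasone, a glucocorticoid, and were wild type (n = 2) or Cd163-/- (n = 2). No label says that the replicates of a group came from different animals or dishes. The p-values below therefore reflect only how these samples vary, and that variation may be technical.

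Cardiomyocytes under pressure overload return to part of a fetal expression programme and add a set of stress proteins to it. Some of these sit on the contractile apparatus, where titin, the Z-disc and the intercalated disc sense and carry strain. Others act in the cytoplasm on calcium signalling or nucleotide supply, and a few are secreted and reach other tissues. Ankrd1 (CARP) and Ankrd23 (DARP) are ankyrin repeat proteins that bind titin and also occur in the nucleus. Fhl1 is a LIM-domain protein of the sarcomere, and Xirp1 and Xirp2 carry actin-binding Xin repeats at the intercalated disc. Sprr1a is a small proline-rich protein best known from the cornified envelope of skin, and it is also induced in stressed heart muscle and injured neurons. Rcan1 inhibits the phosphatase calcineurin, and Uck2 phosphorylates uridine and cytidine in pyrimidine salvage. Gdf15 is a secreted stress cytokine of the TGF-beta superfamily, and Clu encodes clusterin, a secreted chaperone.

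Promoter windows of 4 members are shown for reference beside the values. Sprr1a has the widest difference between the heart groups and Ankrd1 the highest level. Xirp2 has a relative, Xirp1, among the members, and Rcan1 has windows at an upstream and an internal start. Each window runs from 250 bases before to 50 bases after a transcript start, 5′ to 3′ on the gene's strand, and comes from RefSeq on GRCm38.p6. Capitals mark matches to 7 motifs searched on both strands. AP-1 was spelled TGANTCA and the MCAT element bound by TEAD factors was spelled CATTCC. The TATA box was spelled TATAAA and the core of the NFAT site was spelled TGGAAA. The composite site of CHOP with ATF factors was spelled TGATGNAA. The CArG box and the MEF2 site were searched by their usual patterns. The windows lie at chr3:92485832-92486131 (minus strand) for Sprr1a, chr19:36119795-36120094 (minus strand) for Ankrd1, chr2:67445752-67446051 (plus strand) for Xirp2 and chr16:92400029-92400328 (minus strand) for the internal start of Rcan1.
Sprr1a: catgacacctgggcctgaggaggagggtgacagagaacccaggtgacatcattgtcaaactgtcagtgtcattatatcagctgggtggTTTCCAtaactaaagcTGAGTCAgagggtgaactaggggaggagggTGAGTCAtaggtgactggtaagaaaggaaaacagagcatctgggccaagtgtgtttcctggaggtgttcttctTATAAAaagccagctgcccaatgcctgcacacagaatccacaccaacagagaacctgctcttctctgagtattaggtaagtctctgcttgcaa
Ankrd1: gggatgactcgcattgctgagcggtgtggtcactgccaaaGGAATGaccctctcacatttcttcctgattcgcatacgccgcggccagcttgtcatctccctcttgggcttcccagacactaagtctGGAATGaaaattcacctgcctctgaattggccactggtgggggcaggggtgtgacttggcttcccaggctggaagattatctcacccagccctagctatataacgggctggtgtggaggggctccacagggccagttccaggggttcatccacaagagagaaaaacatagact
Xirp2: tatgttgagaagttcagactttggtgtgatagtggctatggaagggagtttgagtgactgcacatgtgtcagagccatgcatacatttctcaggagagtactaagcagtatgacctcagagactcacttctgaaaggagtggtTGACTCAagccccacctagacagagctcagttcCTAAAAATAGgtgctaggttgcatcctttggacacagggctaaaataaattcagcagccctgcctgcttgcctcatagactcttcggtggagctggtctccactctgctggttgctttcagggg
Rcan1 internal start: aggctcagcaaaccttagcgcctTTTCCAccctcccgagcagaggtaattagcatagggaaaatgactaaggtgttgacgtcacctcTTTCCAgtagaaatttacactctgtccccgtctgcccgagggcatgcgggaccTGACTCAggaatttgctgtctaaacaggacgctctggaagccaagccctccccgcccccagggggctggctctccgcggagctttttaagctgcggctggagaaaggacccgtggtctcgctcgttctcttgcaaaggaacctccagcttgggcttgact
With the start site at 0, the Sprr1a window held AP-1 matches beginning at -146 and -116, an NFAT core match at -162 and a TATA box at -43. The internal Rcan1 window held an AP-1 match at -110 and NFAT core matches at -227 and -163, and the upstream Rcan1 window (chr16:92466120-92466419, minus strand) held none of the 7. Xirp2 had an AP-1 match at -107 and a MEF2 site at -74, and Ankrd1 had MCAT matches at -210 and -123. No match in these windows overlapped another. Windows were found for 8 members, 12 windows in all. AP-1 was present in 3 of the 8 genes, against 7.81% of all 32851 windows, and MCAT in 3, against 14.7%. The NFAT core was present in 2, against 21.4%, and the TATA box in 2, against 13.6%. A CArG box was present in Fhl1, a motif that 1.63% of windows hold, MEF2 sites occurred in 3.19% of windows, and the CHOP-ATF composite (3.97%) was found in none of the 8. A gene with several windows has more chances of a match than a single window, and a match is only a run of letters, not a proven binding site.

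Depth was similar across libraries, 13.5 to 14.9 M counts in hearts and 16.7 to 18.6 M in macrophages, where M stands for mega. Levels are CPM, counts per M counts of the scaled library, as mean ± SD, and 3 counts, taken here as the limit of detection, equal 0.192 to 0.220 CPM in a heart. The hearts were rich in cardiomyocyte RNA: the summed level of 15 cardiomyocyte markers was 52419 to 62617 CPM in saline and 52023 to 60626 in IL-10 hearts. Markers of the atrium summed to 919 to 1653 CPM in saline and 293 to 596 in IL-10 hearts, nearly all of it Nppa, which the ventricle also makes under load. The atrial gene Bmp10 was at 0 in every heart, and Myl7 had 1 to 4 counts. Summed fibroblast markers (3555 to 3920 against 3414 to 4091 CPM) and summed macrophage markers (683 to 1158 against 956 to 1066 CPM) overlapped between the saline and the IL-10 hearts. Single markers moved within these lists by edgeR's test. Of 12 fibroblast markers 3 fell (Postn by 1.44, Col1a1 by 1.34 and Col1a2 by 1.12 on the log2 scale) and 3 rose. Of 8 smooth muscle and pericyte markers 3 fell (Acta2 by 1.02), of 10 endothelial markers 2 fell, of 4 epicardial markers Krt18 fell (by 1.72), and of 12 macrophage markers Cd68 fell (by 0.61). Of 15 cardiomyocyte markers 4 rose and Actc1 fell (by 0.79). Of 3 skeletal muscle markers tested Tnnt3 fell (by 3.36). Cardiomyocyte rises numbered 0, 2, 1 and 1 without saline 1, saline 3, IL-10 1 and IL-10 2, fibroblast rises 1 without saline 1, saline 3, IL-10 2 or IL-10 3, and endothelial falls 1 without saline 1 or with DESeq2 size factors and 0 without saline 2, saline 3, IL-10 1 or IL-10 2. The Cd68 fall was not called without saline 1, saline 3, IL-10 1 or IL-10 2. The part of these shifts in the members' values was not tested. In bulk tissue, fewer cells of a type and less RNA per cell cannot be told apart. Cd163 itself had 352 and 205 counts in wild-type macrophages (20.9 and 13.0 CPM) and 9 and 14 in Cd163-/- macrophages (0.448 and 0.778 CPM). The hearts labelled Cd163-/- held 45, 47 and 57 Cd163 counts with saline and 37, 43 and 34 with IL-10, or 2.39 to 3.65 CPM. That is above both Cd163-/- cultures, although Adgre1, the macrophage marker F4/80, was at 25.4 to 46.3 CPM in hearts and 599 to 1219 CPM in the 4 cultures. With no wild-type heart to set beside them, and the deleted part of the gene not stated, the heart label could not be checked.

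In all, 6 members had lower levels in every IL-10 heart than in every saline heart, and the other 4 overlapped between the groups. The 6 were Sprr1a, Fhl1, Xirp2, Clu, Uck2 and Ankrd1, and the 4 were Gdf15, Rcan1, Xirp1 and Ankrd23. The median log2 fold change, IL-10 over saline, was -0.69 over the members and -0.01 over all 13718 genes tested. By edgeR's quasi-likelihood test at an adjusted p of 0.05, 6 of 10 members were called lower and 0 higher, while 6.7% of all genes tested were called lower and 6.86% higher. Groups that did not overlap, with IL-10 lower, occurred in 15.8% of all genes. The members were picked with this contrast known, so nothing is read from their count. That count was 5, without Ankrd1, when saline 2, saline 3, IL-10 1 or IL-10 2 was left out.

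**Figure D1:**
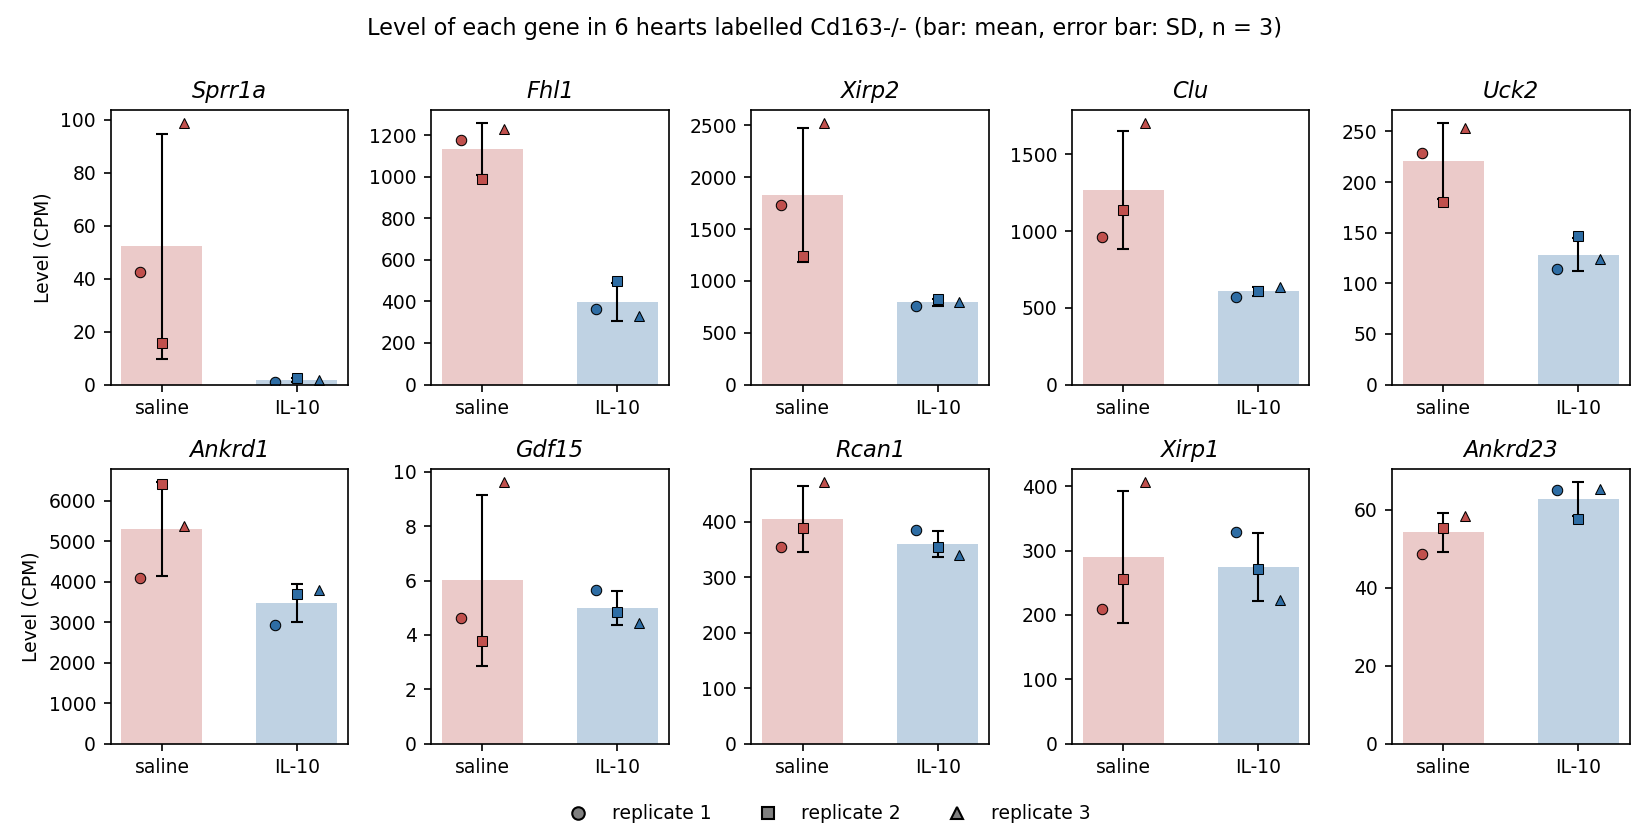
Level of each member in CPM (vertical axis, starting at 0) in the 3 saline and 3 IL-10 hearts. Bars are means, error bars SD, and point shapes the replicates. The upper row and Ankrd1 show groups that do not overlap, and the saline 3 heart is the highest saline point for all members but Ankrd1.

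Sprr1a (ENSMUSG00000050359, chromosome 3, 92483952 to 92485895) showed the widest separation. Its counts were 579, 213 and 1539 in saline hearts 1 to 3 and 12, 32 and 27 in IL-10 hearts 1 to 3. In CPM these were 42.4, 15.5 and 98.6 against 0.828, 2.35 and 1.90. The lowest saline heart was well above the highest IL-10 heart, yet the saline hearts differed from one another by 6.35 times. Means were 52.2 ± 42.4 and 1.69 ± 0.782 CPM (n = 3 each), a log2 fold change of -4.95 (SE 0.55). Leaving out single hearts gave -5.38 to -4.09. The gene's keratinocyte setting was checked with 14 marker genes, of which 13 were matched. Krt5, Krt1, Krt6a, Krt15, Ivl, Flg and Krtdap were at 0 in every heart. The markers together summed to 2.99 to 7.75 CPM in saline and 2.21 to 2.95 in IL-10 hearts, every IL-10 sum below every saline sum, narrowly. Most of each saline sum was Sfn, at 2.71, 2.19 and 5.57 CPM against 0.414, 0.808 and 0.984 in IL-10 hearts. The other markers together overlapped between the groups. Sfn, the only one abundant enough to be tested, fell (log2 fold change -2.25, adjusted p = 0.00263 by edgeR). Its part in the Sprr1a values was not tested. Of the 14 other Sprr genes counted, 11 had no read in any heart, and Sprr2a3, Sprr2f and Sprr2g had at most 6 counts in any heart.

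The members of the sarcomere and intercalated disc are given next, family by family. Fhl1 (chromosome X, 56731787 to 56793346) measured 1175, 990 and 1228 CPM in saline and 364, 498 and 329 CPM in IL-10 hearts. The 3 saline hearts lay close together and above the IL-10 range, with means of 1131 ± 125 and 397 ± 89.3 CPM and a log2 fold change of -1.51 (SE 0.16). Its relative Fhl2, an abundant LIM protein of the heart, was at 1437 ± 158 and 1547 ± 310 CPM (log2 fold change 0.11, SE 0.15, adjusted p = 0.702 by edgeR), and Fhl3 gave -0.30 (SE 0.18, adjusted p = 0.297). Whether Fhl1 and Fhl2 responded differently was not tested.

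Xirp2 (chromosome 2, 67446002 to 67526614) measured 1727, 1244 and 2519 CPM in saline against 758, 828 and 795 CPM in IL-10 hearts. Saline 3 was the highest and saline 2 the lowest of the saline hearts, while the IL-10 hearts spanned only 1.09 times. Means were 1830 ± 644 and 794 ± 35.0 CPM, a log2 fold change of -1.21 (SE 0.19). Xirp1, its closest relative (chromosome 9, 120013755 to 120023598), measured 209, 255 and 406 CPM in saline and 329, 271 and 223 CPM in IL-10 hearts. These ranges overlapped almost completely, with a log2 fold change of -0.08 (SE 0.20) that ran from -0.27 to 0.25 when single hearts were left out.

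Ankrd1 (chromosome 19, 36111961 to 36120099) was the most abundant member, with 4107, 6415 and 5376 CPM in saline and 2941, 3707 and 3797 CPM in IL-10 hearts. Saline 2, low for Sprr1a and Xirp2, was the highest here. Means were 5299 ± 1156 and 3482 ± 470 CPM, a log2 fold change of -0.61 (SE 0.17), and the gap between the groups, 4107 against 3797 CPM, was small beside the saline spread. Ankrd23 (chromosome 1, 36530188 to 36536883) measured 48.6, 55.5 and 58.6 CPM in saline and 65.2, 57.8 and 65.3 CPM in IL-10 hearts. It was the only member with the higher mean in IL-10 hearts, by 0.21 on the log2 scale (SE 0.11), with 1 IL-10 heart inside the saline range. Of its exon bases, 78.2% are shared with Gm42417, which was listed at 0 in every library, so the level of Ankrd23 is uncertain. Ankrd2, another ankyrin repeat protein of this family, was at 14.8 ± 10.3 CPM in saline and 9.54 ± 6.40 CPM in IL-10 hearts (log2 fold change -0.64, SE 0.41, adjusted p = 0.331 by edgeR), and without saline 1 its value was 0.07.

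Of 29 other genes of the Z-disc and intercalated disc, all tested, 7 rose and 4 fell in IL-10 hearts, beside 6.86% and 6.7% of all genes. Their median log2 fold change was 0.00, against -0.01 over all genes. Cmya5, a costamere protein, rose by 0.80 (adjusted p = 0.000936 by edgeR), whereas Synpo2l, an actin-associated Z-disc protein, fell by 0.81 (adjusted p = 0.000716). Cryab, the small heat shock protein that protects desmin filaments, fell by 0.95 (adjusted p = 0.001) and Flnc, the muscle filamin, fell by 0.65 (adjusted p = 0.00499). By library size alone 3 rose and 5 fell, and by upper quartile 4 rose and 4 fell, so the balance of rises over falls depends on the scaling. Rising genes numbered 2 without saline 3 or IL-10 2, 3 without saline 1 and 4 without IL-10 1. Among 14 target genes of YAP and TEAD, the factors that bind MCAT elements, 0 rose by edgeR (0 also at an unadjusted p of 0.05 and 0 by DESeq2) and 1, Tgfb2, fell (log2 fold change -0.97, adjusted p = 0.00117 by edgeR). Ccn2, a matrix protein, was at -0.52 (adjusted p = 0.144), and without saline 2 it fell by 0.80 (adjusted p = 0.00438 by edgeR). Leaving out single hearts gave -0.80 to -0.11 for Ccn2.

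The intracellular regulators come next, and no difference between members was tested. Uck2 (chromosome 1, 167222883 to 167285320) measured 229, 180 and 253 CPM in saline and 114, 146 and 124 CPM in IL-10 hearts, with no overlap. Means were 221 ± 37.2 and 128 ± 16.3 CPM, a log2 fold change of -0.78 (SE 0.14). Its relatives Uck1 and Uckl1 gave -0.09 (SE 0.14, adjusted p = 0.709) and 0.15 (SE 0.14, adjusted p = 0.52 by edgeR). Of 14 other genes of pyrimidine synthesis and salvage, 0 rose by edgeR (0 also at an unadjusted p of 0.05 and 0 by DESeq2) and 3 fell: Upp1, uridine phosphorylase, by 1.03 (adjusted p = 0.00142), Dck, deoxycytidine kinase, by 0.81 (adjusted p = 0.00899), and Ctps, CTP synthase, by 0.50 on the log2 scale (adjusted p = 0.00993 by edgeR). Dck had an adjusted p = 0.0536 without IL-10 2, and Ctps 0.0573 without IL-10 1. The median of the list was -0.16. Rcan1 (chromosome 16, 92391953 to 92470867) measured 355, 388 and 470 CPM in saline and 385, 355 and 339 CPM in IL-10 hearts. The groups overlapped, with means of 404 ± 59.5 and 360 ± 23.5 CPM and a log2 fold change of -0.17 (SE 0.13). Counts per gene do not separate its upstream and internal starts. Of 16 other genes of the calcineurin and NFAT pathway, 1 rose and 0 fell by edgeR (0 fell also at an unadjusted p of 0.05 and 0 by DESeq2, which called 3 rises). That gene, Myoz2, a calcineurin-binding Z-disc protein, rose by 0.53 (SE 0.13, adjusted p = 0.0123 by edgeR), with adjusted p = 0.058, 0.0567 and 0.0703 without saline 1, saline 3 and IL-10 2. Rcan2 gave 0.29 (SE 0.11, adjusted p = 0.104) and Rcan3 -0.07 (SE 0.17, adjusted p = 0.83).

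The secreted members are Clu and Gdf15. Clu (chromosome 14, 65968483 to 65981547) measured 964, 1141 and 1703 CPM in saline and 573, 611 and 635 CPM in IL-10 hearts. All IL-10 hearts lay below all saline hearts, with means of 1269 ± 386 and 607 ± 31.2 CPM and a log2 fold change of -1.06 (SE 0.17). Gdf15 (chromosome 8, 70629393 to 70632456) was the scarcest member by counts per length in saline hearts, with 63, 52 and 150 counts, and 82, 66 and 63 counts in IL-10 hearts. In CPM these were 4.61, 3.79 and 9.61 against 5.66, 4.85 and 4.43. Saline 3 stood above the other 5 hearts, which lay within 3.79 to 5.66 CPM. The log2 fold change of -0.28 (SE 0.29) turned to 0.25 without saline 3. Gfral, the GDF15 receptor, had no read in any heart. Among the other secreted or receptor stress genes tested, Lcn2, lipocalin 2, rose by 1.09 (adjusted p = 0.00598) and Tnfrsf12a, the TWEAK receptor, fell by 0.50 (adjusted p = 0.00928 by edgeR). Lcn2 had an adjusted p = 0.0555 without IL-10 2 and was not called by DESeq2, and Tnfrsf12a 0.0572 without saline 3.

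Gdf15 is also a known target of the integrated stress response, the programme in which ATF4 and CHOP answer amino acid or protein-folding stress. Of 20 other genes of that programme tested in hearts, 4 rose and 5 fell, with a median log2 fold change of 0.02. Cebpb rose by 1.13 (adjusted p = 3.61e-05), Ddit4 by 1.40 (adjusted p = 0.00263) and Atf5 by 0.57 (adjusted p = 0.00711 by edgeR). Asns, asparagine synthetase, fell by 0.85 (adjusted p = 0.0135). None of the 5 falls was called without saline 1, IL-10 1 or IL-10 2, and 3 were called without saline 3.

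A further question was whether the members moved together from heart to heart within a group, where the treatment is constant. In the saline hearts they largely shared the highest heart, while the lowest heart differed between members. Saline 3 was the highest of its group for 9 of 10 members, against 35.1% of all genes tested, saline 2 for 1 member, Ankrd1, against 34.2%, and saline 1 for 0, against 30.7%. Every member lay above its group mean in saline 3, with a median deviation of 0.35 in log2(CPM + 0.5), while the median over all genes was 0.01. The median member deviations were -0.16 in saline 1 and -0.16 in saline 2, which were the lowest heart for 5 members each. The counts of 0, 1 and 9 members were the same under DESeq2 size factors, library size alone, upper-quartile scaling, and with mitochondrially encoded genes left out. Saline 3 was the highest for the genes that overlapped between the groups (Gdf15, Xirp1, Rcan1, Ankrd23) as for those that did not, Ankrd1 apart. In the IL-10 hearts the highest value came from IL-10 1, 2 and 3 for 3, 4 and 3 members, against 33.8%, 30.6% and 35.6% of all genes, with median deviations of -0.07, 0.04 and -0.02. With 3 hearts per group, and members that share these libraries, the pattern is a description of single hearts, and no correlation was computed. Saline 3 also had the deepest library, the highest summed macrophage markers of the saline hearts (1158 CPM against 940 and 683) and most of the counts of Tnnt3, a skeletal muscle troponin (65 against 17 and 18). Some non-members that fell in IL-10 hearts were also highest in saline 3. Col1a1 was at 351 CPM against 210 and 167, Acta2 at 161 against 116 and 102, and Cryab at 2973 against 2083 and 2197. Others were not: Flnc was highest in saline 1 and Nppa in saline 2. A high saline 3 is thus not particular to the members, which were also selected on these saline values. The part of depth and of these other genes in the high values of saline 3 was not tested. Of 12 skeletal muscle markers, Mybpc2 made up most of the sum, at 43.6, 68.9 and 54.4 CPM in saline hearts 1 to 3, and the other 11 together were highest in saline 3, at 5.77 CPM against 3.29 and 2.84. Tnnc2, Myh1, Myh2, Myh4 and Myf6 were at 0 in every heart.

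**Figure D2:**
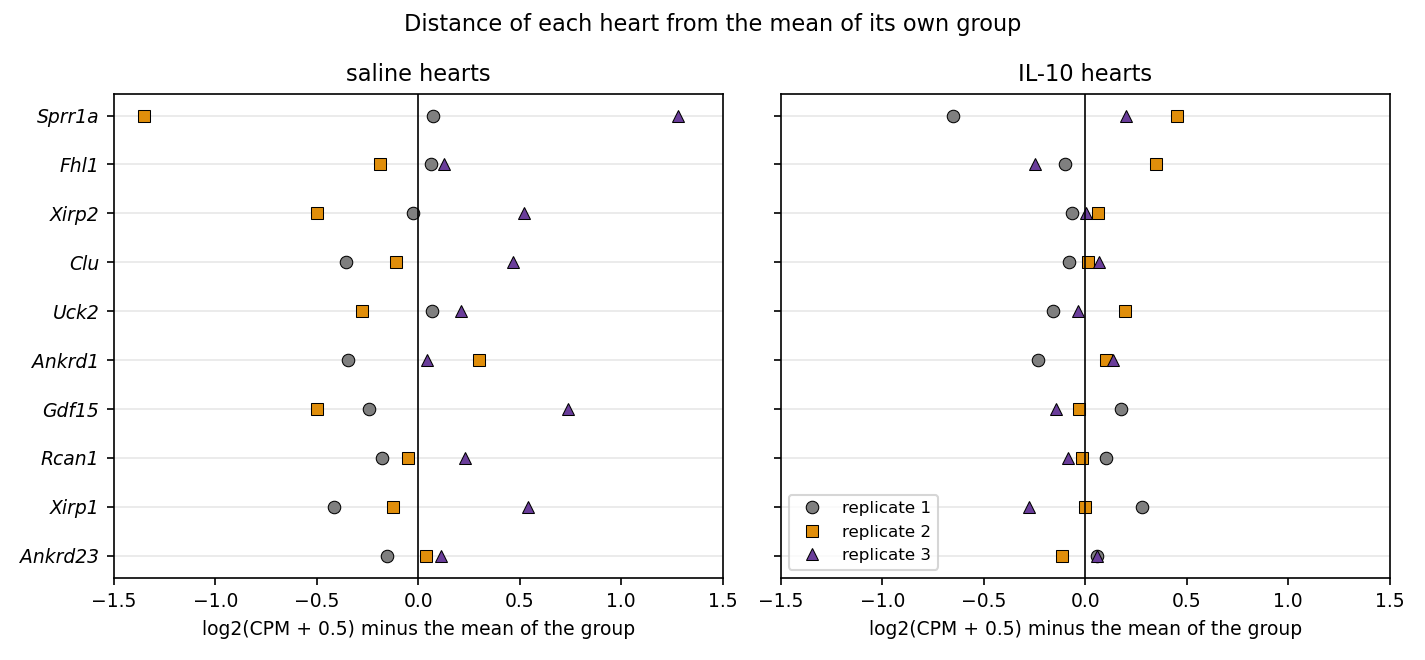
Deviation of each heart from its own group's mean, in log2(CPM + 0.5), for the 10 members, in saline hearts (left) and IL-10 hearts (right). Point shapes mark replicates. Saline 3 lies right of 0 for all 10 members, while the IL-10 hearts show no common order.

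The members also differed in how far the saline hearts spread. The SD of log2(CPM + 0.5) over the 3 saline hearts was 1.32 for Sprr1a, 0.65 for Gdf15, 0.51 for Xirp2, 0.49 for Xirp1 and 0.42 for Clu, against a median of 0.16 over all genes. These SDs lay at percentiles 99.9, 98.6, 95.8, 95.3 and 92.1 of all genes tested. Fhl1 (0.16) and Ankrd23 (0.14) were near the middle of the distribution. In the IL-10 hearts the SD of Xirp2 was 0.06 and that of Clu 0.07, below the median of 0.17 over all genes, whereas Sprr1a, at under 3 CPM, kept an SD of 0.58.

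Levels per exon length rank the members within a group. In saline hearts Ankrd1 led with 1836 ± 401 CPM per kb, followed by Clu (369 ± 112) and Fhl1 (305 ± 33.7), whose ranges overlapped. Xirp2 (153 ± 53.8), Rcan1 (131 ± 19.3), Sprr1a (64.7 ± 52.6), Xirp1 (49.7 ± 17.7) and Uck2 (40.4 ± 6.80) formed a run in which each overlapped its neighbour. Ankrd23 (20.1 ± 1.89) and Gdf15 (3.24 ± 1.70) closed the order without overlap. The rank of Ankrd23 is uncertain, since 78.2% of the exon bases it is divided by are shared with Gm42417. In IL-10 hearts Ankrd1 (1207 ± 163) and Clu (177 ± 9.08) again led, and Rcan1 (117 ± 7.62) came next, overlapping Fhl1 (107 ± 24.1). Sprr1a moved from rank 6 to rank 10, at 2.10 ± 0.970 CPM per kb, overlapping Gdf15 at 2.69 ± 0.338. These lengths count all annotated exons, so a gene whose long isoform is little used, ranks too low.

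**Figure D3:**
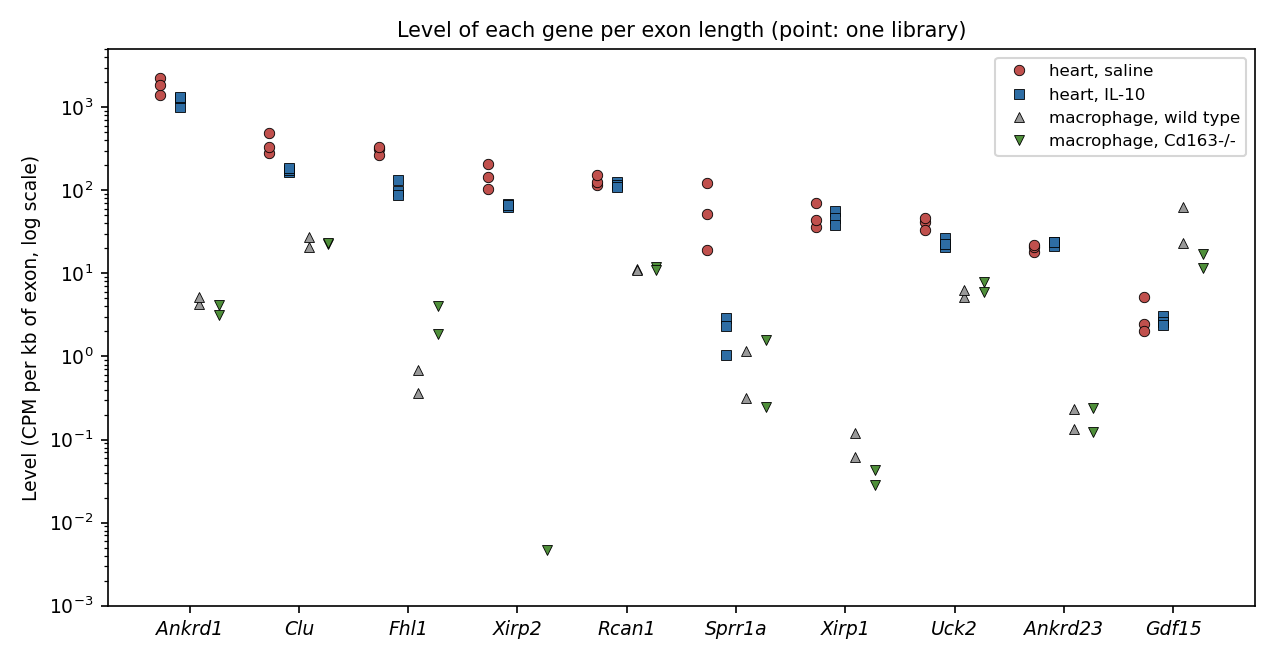
Level of each member per kb of exon (log axis) in every library, hearts and macrophages. The 2 wild-type libraries and 1 Cd163-/- library in which Xirp2 had no count are not drawn. Ankrd1 is highest in hearts, and only Gdf15 lies higher in all macrophage libraries than in all hearts.

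The genes whose pattern over the 6 hearts was nearest to that of Sprr1a were not members. Likeness was measured as the root mean square distance between log2(CPM + 0.5) profiles, each centred on its mean, among 12610 named genes averaging 1 CPM or more. The 5 nearest were Ccnb1 (0.86), Nmrk2 (1.13), Spp1 (1.20), Tpx2 (1.20) and Mki67 (1.21). Ccnb1, Tpx2 and Mki67 are genes of mitosis, Nmrk2 is a nicotinamide riboside kinase of muscle, and Spp1 encodes the secreted phosphoprotein osteopontin. Spp1 also had its order of saline hearts, with 61.8, 15.1 and 90.8 CPM, against 5.11, 13.1 and 18 CPM in IL-10 hearts. Nmrk2 measured 80.5, 119 and 127 CPM in saline and 15.7, 13.3 and 14.3 CPM in IL-10 hearts. The nearest member was Fhl1, at rank 82, then Xirp2 (rank 127), Clu (202), Uck2 (344) and Ankrd1 (1041), with Ankrd23 at rank 9362. A distance of this kind favours genes with a large difference between the groups.

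The macrophage cultures give a comparison in other libraries, Cd163-/- over wild type. The choice of members used its table for detection and not this contrast, although results of the whole series were known at the time. In these, 8 members were abundant enough to be tested, and 1 of these, Fhl1, was called by edgeR, beside 26.4% of all 13861 genes. Fhl1 had 43 and 21 counts in wild-type and 301 and 123 counts in Cd163-/- cultures, or 2.55 and 1.33 against 15 and 6.83 CPM. Both Cd163-/- cultures lay above both wild-type cultures, which held for 1 of the 8 members, Fhl1, and for 35.3% of all genes tested. The groups had means of 1.94 ± 0.863 and 10.9 ± 5.77 CPM (n = 2 each). Fhl1 rose by 2.48 on the log2 scale (SE 0.49, adjusted p = 0.0171 by edgeR), and without Cd163-/- culture 1 the value was 1.80 with adjusted p = 0.0992. Even so, its highest macrophage level was far below its lowest heart level of 329 CPM. Markers of other adherent cell types were higher in the same Cd163-/- cultures. Of 9 epicardial and mesothelial markers 6 rose, and their sum was 153 and 97.0 CPM in wild-type and 387 and 308 CPM in Cd163-/- cultures. Of 9 fibroblast markers tested 5 rose and 1 fell (sums 1621 and 2351 against 3797 and 3274 CPM), and of 5 smooth muscle markers tested 2 rose (190 and 249 against 721 and 425 CPM). These counts of rises were 0, 2 and 1 without Cd163-/- culture 1, and 3, 2 and 2 without culture 2. Of 23 other Z-disc and intercalated disc genes tested, 9 rose and 1 fell, with 3 and 4 rising without Cd163-/- culture 1 and 2. Their part in the Fhl1 difference was not tested.

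Gdf15 was the other member with a wide difference in macrophages. It measured 117 and 42.6 CPM in wild-type and 21.5 and 31.7 CPM in Cd163-/- cultures. The groups did not overlap, with Cd163-/- lower, as also for Ankrd1 (2 of 8 members, beside 34.1% of all genes tested), although wild-type culture 1 held most of the gap. The log2 fold change was -1.59 (SE 0.47, adjusted p = 0.0541 by edgeR), which missed the threshold. It was -0.68 without wild-type culture 1 (adjusted p = 0.057) and -2.14 without wild-type culture 2 (adjusted p = 0.000307), where it passed. The other tested members were not called: Ankrd1 at -0.37 (SE 0.20, adjusted p = 0.218), Uck2 at 0.25 (SE 0.18, adjusted p = 0.333), Rcan1 at 0.06 (SE 0.12, adjusted p = 0.734), Clu at -0.08 (SE 0.16, adjusted p = 0.75), Ankrd23 at 0.01 (SE 0.55, adjusted p = 0.992) and Sprr1a at 0.25 (SE 0.94, adjusted p = 0.867). Sprr1a had 16 and 4 counts in wild-type and 4 and 23 counts in Cd163-/- cultures, so replicates of 1 genotype differed more than the genotypes did. Xirp1 had 6 and 11 against 5 and 3 counts and Xirp2 0 and 0 against 0 and 1, below what could be tested.

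**Figure D4:**
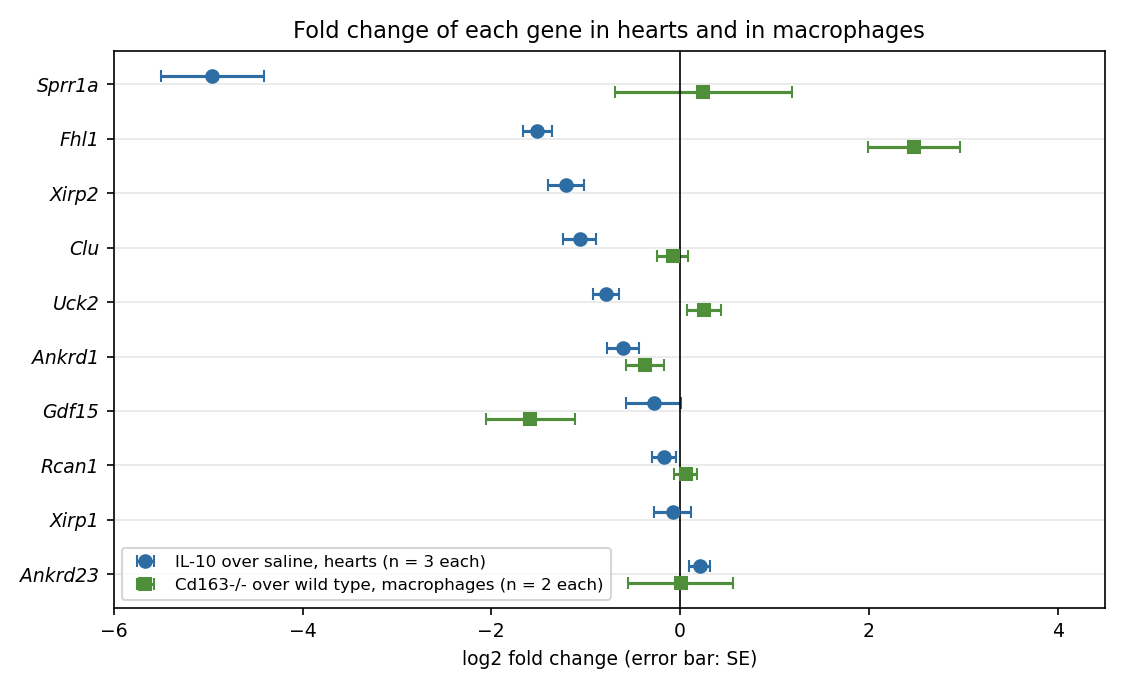
log2 fold change (points) with SE (bars) of each member, IL-10 over saline in hearts and Cd163-/- over wild type in macrophages. The heart value is lowest for Sprr1a at -4.95, and in macrophages Fhl1 lies at 2.48 and Gdf15 at -1.59. Xirp1 and Xirp2 have no macrophage value.

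The pathways around the members were read in the same cultures. Of 21 integrated stress response genes tested beside Gdf15, 1 rose and 6 fell in Cd163-/- macrophages by edgeR, beside 13.1% and 13.3% of all genes. DESeq2 called 3 rises and 6 falls. The median log2 fold change of the list was 0.21, against 0.01 over all genes, so the list as a whole was not lower. The genes named next have the smallest p and all fell. Slc7a11, the cystine transporter, fell by 5.24 (adjusted p = 0.000438), Nupr1 by 2.38 (adjusted p = 0.000698), Ppp1r15a, the phosphatase subunit GADD34, by 2.09 (adjusted p = 0.00527) and Cebpb by 1.40 on the log2 scale (adjusted p = 0.00259 by edgeR). Without Cd163-/- culture 1, 3 fell and 0 rose, without wild-type culture 2, 5 rose, and 3 rose by library size alone and 2 by upper quartile. Of the 16 calcineurin and NFAT genes 8 rose and 0 fell by edgeR (1 fell at an unadjusted p of 0.05 and 0 by DESeq2), among them Nfatc2 at 2.77 (adjusted p = 0.00175) and Mef2c at 1.97 (adjusted p = 0.00399). Rising genes of this pathway numbered 5 without wild-type culture 2 and 2 and 4 without Cd163-/- culture 1 and 2. Of 15 YAP and TEAD targets 6 rose, led by Amotl2 at 1.44 (adjusted p = 0.0182 by edgeR), with 0 and 3 rising without Cd163-/- culture 1 and 2. Of 13 pyrimidine genes 1 rose and 2 fell, with 1 falling by library size alone or upper quartile. Upp1 had 22 and 168 counts in wild-type and 6 and 7 in Cd163-/- cultures, so wild-type culture 2 held most of its wild-type level. Upp1 fell from 5.99 to 0.344 CPM (adjusted p = 0.0396) and Ctps fell by 0.55 (adjusted p = 0.0437), and neither was called by edgeR without wild-type culture 2 or either Cd163-/- culture.

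Every heart held more of Fhl1, Ankrd1, Ankrd23, Xirp1, Xirp2, Rcan1, Clu and Uck2 than every macrophage culture, 8 of the 10 members. Sprr1a in IL-10 hearts overlapped the macrophage range of 0.199 to 1.28 CPM. Gdf15 alone was higher in all macrophage cultures, at 21.5 to 117 CPM, than in all hearts, at 3.79 to 9.61 CPM. The 2 tables were scaled separately, so these levels were set side by side without a test. Of the members' 23 relatives, 7 were tested in hearts with 0 called, and 7 in macrophages with 3 higher and 2 lower. At an unadjusted p of 0.05 in edgeR 1 of the 7 heart relatives passed, and DESeq2 called 1, Rcan2. In macrophages Fhl2 rose by 2.02 (adjusted p = 0.0196), Rcan2 by 1.87 (adjusted p = 0.0267) and Rcan3 by 0.56 (adjusted p = 0.0317 by edgeR). Fhl3 fell by 0.99 (adjusted p = 0.018), and Sprr2e, with 91 and 111 counts in wild-type and 0 and 1 in Cd163-/- cultures, fell (adjusted p = 0.00134). Without Cd163-/- culture 1, 1 of the relatives was called, Sprr2e. Sprr2 genes are near-identical neighbours on chromosome 3, so reads may have been split or shared among them.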

How the data were processed

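Poly(A) RNA was sequenced from 6 hearts and 4 macrophage cultures. Per the labels' protocols, libraries were made with the NEBNext Ultra RNA kit, which does not mark the strand, and the extraction text names livers, which match neither sample type. HISAT2 (2.2.1) aligned the reads and featureCounts (version not given in the sources used here) assigned them to genes, per the submitters' processing notes, and the authors deposited the resulting counts as a heart table and a macrophage table. GRCm39 and mm10 are both listed there, which leaves the build of the counts unknown. Gene coordinates, lengths and names (52081 of 55357 identifiers) come from GENCODE M21 on GRCm38. No column was left without a sample (0 columns).

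Each table was fitted alone in R 4.3.3. Genes that passed filterByExpr with a minimum count of 10 and a minimum total of 15 (edgeR 4.0.16) were scaled by TMM and compared by the quasi-likelihood test, adjusted by Benjamini-Hochberg over all genes tested, and called at an adjusted p under 0.05. SE is the absolute log2 fold change over the square root of F. The fit was tested on simulated data. The members and the 16 further gene lists were chosen with earlier results of these data known. Named genes are all members, relatives with counts, up to 4 genes of smallest heart p per list (smallest macrophage p where macrophages are described) and the 5 genes nearest to Sprr1a. Some genes that this rule names are not reported here. Alternatives were DESeq2 size factors and Wald test (DESeq2 1.42.0), scaling by library size alone or by upper quartile, no filter, mitochondrial genes left out, the replicate number as a block, and leaving out each library. A lone macrophage library was then assumed to vary like the other group.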

Additional observations from a re-analysis of the deposited data

How the results depend on the processing

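Members were chosen on the heart contrast, so their count there, 6 under the scalings, filter, tool and block tried and 5 to 6 without single hearts, shows no stability. Their median log2 fold change without single hearts was -0.77 to -0.59. Leaving out single hearts gave 897 to 1968 genes called, 447 to 1012 lower and 450 to 1082 higher. Leaving out single cultures gave 734 to 3811, with 374 to 1973 lower and 360 to 1838 higher, and 0 to 2 members called. Scaling by library size alone gave 549 genes higher in hearts and 1220 lower in macrophages. Lower calls were 49.4% of heart calls, 64.4% by library size alone and 61.0% by upper quartile, and in macrophages 50.4%, 31.4% and 37.8%, where these scalings shifted the median of all genes by 0.18 and 0.11 on the log2 scale. Without a filter 2 members were called in macrophages, Gdf15 being the addition. Its log2 fold change stayed at -1.59 while its adjusted p by edgeR went from 0.0541 to 9.14e-21, and nothing is read from that call. The cause of these changes was not tested, and leaving out a library also leaves fewer samples.

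The replicate numbers are shared between groups, but no label says that they pair samples. Same-numbered hearts had correlations of deviations of -0.21, 0.06 and -0.01, and same-numbered cultures -0.13. With the replicate block 1523 heart genes and 2656 macrophage genes were called, with 6 and 1 members, and Ankrd23 in macrophages was at -0.0044.

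Small macrophage values changed sign: Clu to 0.10 and Uckl1 to 0.10 by library size alone, to 0.0361 and 0.0346 by upper quartile, and Ankrd23 to -0.016 by DESeq2. Without single libraries the heart ranges crossed 0 for the members Xirp1 (-0.27 to 0.25) and Gdf15 (-0.52 to 0.25). Those of the relatives Ankrd2 (-1.33 to 0.0663) and Rcan3 (-0.18 to 0.0640) also crossed 0. In macrophages the ranges crossed 0 for Ankrd23 (-0.55 to 0.46), Sprr1a (-1.59 to 1.48), Clu (-0.28 to 0.15), Uck1 (-0.0480 to 0.10) and Rcan1 (-0.0112 to 0.12). The precision is limited by 2 cultures and 3 hearts a group, and Sprr1a, Ankrd23 and Xirp1 in macrophages rest on under 25 counts a library.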
